A study of Mus musculus with 4 samples.

Results

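The mitochondrial ribosomal proteins are the nucleus-encoded proteins that build the ribosome inside mitochondria. They were taken here as every protein-coding gene whose symbol begins with Mrpl or Mrps followed by a digit, after the Ensembl identifiers of the count table had been mapped with GENCODE M21 on mm10. The rule found 78 genes among 55573 gene identifiers, 49 named Mrpl and 29 named Mrps, and used no measured value. The study sequenced RNA recovered by RNA immunoprecipitation (RIP-seq), in which an antibody pulls a protein out of a lysate together with the RNA that comes with it. One group of 2 libraries was made with an antibody against Runx1, a transcription factor required for the first blood stem cells, and the other group of 2 libraries with IgG, an antibody with no intended target. All 4 libraries came from wild-type C57BL/6 mouse embryos at embryonic day 10 (E10.0), from cells of the caudal region that were positive for Cd31, an endothelial surface protein, and were isolated by FACS. Whether replicates came from separate embryos or sorts is not in the labels, and the p-values therefore cover only how far these libraries differ, which may be technical.

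Mitochondria keep a small genome of their own, and the few proteins it encodes are core subunits of the respiratory chain and the ATP synthase. They are made by a dedicated ribosome, whose large subunit is built on the 16S rRNA and whose small subunit is built on the 12S rRNA, both transcribed from mitochondrial DNA. Every protein of this ribosome is translated in the cytosol and imported. Some have counterparts in bacterial ribosomes, and others were gained in the mitochondrial lineage. By known structural position 51 members belong to the large subunit, 26 to the small subunit and 1, Mrps36, to neither, since it is now known as a component of the 2-oxoglutarate dehydrogenase complex. Mrps18a and Mrps30 are counted with the large subunit, where they sit despite their names. Of the 77 members in a subunit, 46 have a bacterial counterpart and 31 are specific to mitochondria.

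Coding starts are shown for the 6 members with an unadjusted p under 0.05 between antibodies in edgeR's test. None of them passed after adjustment over all tested genes. Each is read 5′ to 3′ on the sense strand from the longest protein-coding transcript in GENCODE M21, with the start codon in capitals. Positions in mm10 are those of the whole gene. Mrps17 lies at chr5:129715497-129722556 on the plus strand, Mrps7 at chr11:115603925-115608036 (plus), Mrpl49 at chr19:6053622-6057785 (minus), Mrpl2 at chr17:46646229-46650139 (plus), Mrps6 at chr16:92058270-92112227 (plus) and Mrps23 at chr11:88204388-88211507 (plus).
Mrps17: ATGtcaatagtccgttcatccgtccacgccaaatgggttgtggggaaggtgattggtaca
Mrps7: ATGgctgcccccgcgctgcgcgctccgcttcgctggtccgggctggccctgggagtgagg
Mrpl49: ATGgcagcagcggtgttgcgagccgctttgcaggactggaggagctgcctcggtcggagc
Mrpl2: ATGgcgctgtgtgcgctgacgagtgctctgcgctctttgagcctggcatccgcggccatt
Mrps6: ATGccccgctacgagttggctttgattctg
Mrps23: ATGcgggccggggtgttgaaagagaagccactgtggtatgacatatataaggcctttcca

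Promoters of these genes are known for short, CpG-rich sequences that hold sites of ETS factors such as GABP, of NRF1 and of YY1. For each kind 1 stretch is shown, from the member with the highest mean level whose match lies wholly before the start. Most YY1 matches of the members lay after the start, so the YY1 stretch is not typical. The windows run from 250 bases before to 50 after the RefSeq start on GRCm38.p6, and capitals mark the matched letters. The Mrpl3 stretch is at chr9:105053237-105053266 (plus strand) and the Mrpl45 stretch at chr11:97315585-97315614 (plus). The Mrps11 stretch is at chr7:78783012-78783041 (plus), where the YY1 letters read on the opposite strand. It also lies within the annotated gene Mrpl46, which is on the minus strand.
Mrpl3, ETS: ttgagaaacggaCCGGAAGtggcccggctg
Mrpl45, NRF1: agaagcctcctGCGCAGGCGcagctggctc
Mrps11, YY1: cctacgggcgcCGCCATCTTtctgtcttcc

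At least 1 RefSeq promoter window was found for 69 of the 78 members. A gene with more than 1 window was counted once, as a match if any of its windows held the letters. Letters were searched on both strands, and the ETS and YY1 letters can overlap by 3 bases. CCGGAAG, the ETS letters, were found for 26 of the 69 members (37.7%). The share was 9.93% of all 27025 genes with a window and 20.4% of the 8712 of them that could be tested. GCGCANGCG, the NRF1 letters, were found for 16 members (23.2%), against 7.03% of all these genes and 15.7% of the tested ones. AAGATGGCG, the YY1 letters, were found for 8 members (11.6%), against 1.64% and 3.85%. At least 1 of these 3 was present for 42 members. TGTGGT, the core letters that Runx proteins bind in DNA, were found for 9 members (13.0%), against 18.9% of all these genes and 14.4% of the tested ones. The median log2 fold change between antibodies was 0.77 over the 8 tested members with these Runx letters and 0.63 over the 52 tested members without them. Such matches describe DNA letters near the start site, whereas the libraries measured recovered RNA.

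The Runx1 libraries held 1675488 and 1887301 gene counts and the IgG libraries 3843318 and 2482045. Levels below are counts per 1000000 gene counts of the library (CPM), so a higher value means a larger share of a library. Over all genes, 80 of 12401 tested (0.645%) passed a false discovery rate of 0.05 in edgeR's quasi-likelihood test, 38 higher and 42 lower with the Runx1 antibody. Endothelial markers were present in every library, with summed levels of 1548 and 1269 CPM with Runx1 and 1573 and 1433 CPM with IgG over 10 genes. Markers of other cells were present too. The summed level of 8 erythroid markers was 855 and 861 CPM against 492 and 457 CPM, that of 6 mesenchymal markers 919 and 894 against 931 and 874 CPM, and that of 6 neural markers 633 and 519 against 401 and 381 CPM. The 5 macrophage markers summed to 48.3 and 168 CPM against 18.7 and 24.2 CPM, with Cd68, a defining marker, at 0 in both Runx1 libraries, and the 7 blood markers to 142 and 222 against 213 and 209 CPM. In edgeR 0 of 38 tested markers passed, and 10 (26.3%, against 14.2% of all tested genes) had an unadjusted p under 0.05. For these markers limma-voom called 0, where it called 1.79% of all genes. DESeq2 called 3 higher, Hba-x, Hbb-y and the macrophage marker Csf1r, where it called 6.25% of the genes it tested. Csf1r stood at 11.9 and 144 CPM with Runx1 and 12.5 and 9.67 CPM with IgG, so its value rests on the second Runx1 library. All 6 erythroid markers that could be tested had both Runx1 libraries above both IgG libraries, and their part in the results on the mitochondrial ribosome was not tested. In such bulk libraries fewer cells of a type and less RNA per cell cannot be told apart.

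Transcripts of nearly all members were recovered with both antibodies, at low counts. In each of the 4 libraries 76 of 78 members had at least 1 count. The median count of a member was 23.5 and 24.5 in the Runx1 libraries and 37.5 and 21 in the IgG libraries. These medians correspond to 14.0 and 13.0 CPM with Runx1 and to 9.76 and 8.46 CPM with IgG, where 3 counts are worth between 0.781 and 1.79 CPM. The low-count filter left 68 members to test, 47 of the large and 21 of the small subunit. Levels of different genes can be compared only per length, so CPM was divided by the length of the longest transcript in kilobases. On that scale the mean over the 4 libraries had a median of 7.50 CPM per kilobase over the members, and Mrps6 stood highest at 123, followed by Mrps9 at 67.7, Mrpl28 at 34.0, Mrpl37 at 30.5 and Mrpl18 at 28.8 CPM per kilobase. Mrps6 and Mrps9 are counterparts of bacterial small subunit proteins, while Mrpl37 is specific to mitochondria. The level of Mrps6 carries a limit: 36.1% of its transcript lies in exons shared with Slc5a3 and Gm49711 on the same strand.

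Together the members took a larger share of the Runx1 libraries than of the IgG libraries. Their summed level was 1507 and 1595 CPM with Runx1 and 1293 and 1173 CPM with IgG, a ratio of means of 1.26, and the groups did not overlap. Large subunit members summed to 927 and 1015 CPM with Runx1 and to 720 and 683 CPM with IgG, a ratio of 1.39. The small subunit sums were close to each other, at 577 and 578 CPM against 571 and 490 CPM, a ratio of 1.09, and they overlapped when TMM-scaled totals replaced plain totals. The large subunit sum divided by the small subunit sum was accordingly 1.61 and 1.76 with Runx1 and 1.26 and 1.39 with IgG. That separation rests on the most counted small subunit member: with Mrps6 left out, a choice made after its values were seen, the ratios were 1.84 and 2.06 against 1.65 and 1.87, and the groups overlapped. With 2 libraries against 2, an exact permutation test has too few arrangements to pass 0.05, and none was run on these sums.

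**Figure D1:**
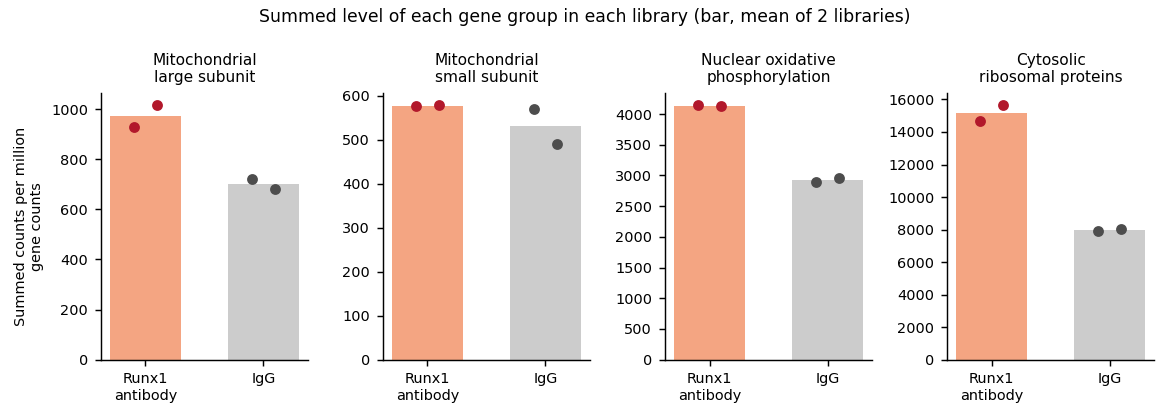
Summed level in CPM in each of the 4 libraries, with 1 point per library. The sets are the large and the small subunit of the mitochondrial ribosome, the nuclear oxidative phosphorylation genes and the cytosolic ribosomal proteins. The 2 Runx1 libraries lie above the 2 IgG libraries in every set (for the small subunit not with TMM-scaled totals), by a ratio of means of 1.09 for the small subunit and 1.90 for the cytosolic ribosomal proteins.

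Gene by gene, no member passed the test between antibodies. In edgeR's quasi-likelihood test 0 of 68 members passed the false discovery rate of 0.05, where 0.645% of all tested genes did, and the smallest adjusted p was 0.215. At an unadjusted p under 0.05 there were 4 members with the higher level in the Runx1 libraries (Mrps17, Mrps7, Mrpl49 and Mrpl2) and 2 with the lower level (Mrps6 and Mrps23). These 6 make 8.82% of the tested members, against 14.2% of all tested genes at the same limit. DESeq2 gave an adjusted p to 33 members and called 0 of them at 0.05, where it called 6.25% of the genes it tested, and limma-voom called 0 of 68, where it called 1.79%. At a false discovery rate of 0.1, DESeq2 called 2 members, Mrps7 (adjusted p = 0.0912) and Mrps17 (adjusted p = 0.0959), with 9.50% of its genes called, and edgeR called 0, with 1.85% of all genes called.

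The values of the members lay above 0 more often than below. The median log2 fold change, Runx1 over IgG, was 0.63 over the 68 members, with the middle 50% between -0.17 and 1.03, and 0.03 over all tested genes. The value was above 0 for 47 members (69.1%), where 51.5% of all tested genes were above 0. Both Runx1 libraries were above both IgG libraries for 22 members (32.4%, against 24.1% of all tested genes) and below them for 5 members (7.35%, against 21.3%). The libraries of the other 41 members overlapped. Mrpl20, Mrpl42, Mrpl49, Mrpl54 and Mrps11 passed the low-count filter only through their Runx1 libraries. They are part of the 47 and of the 22, so both counts are partly set by the filter. As counts of members these are a description and carry no test.

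**Figure D2:**
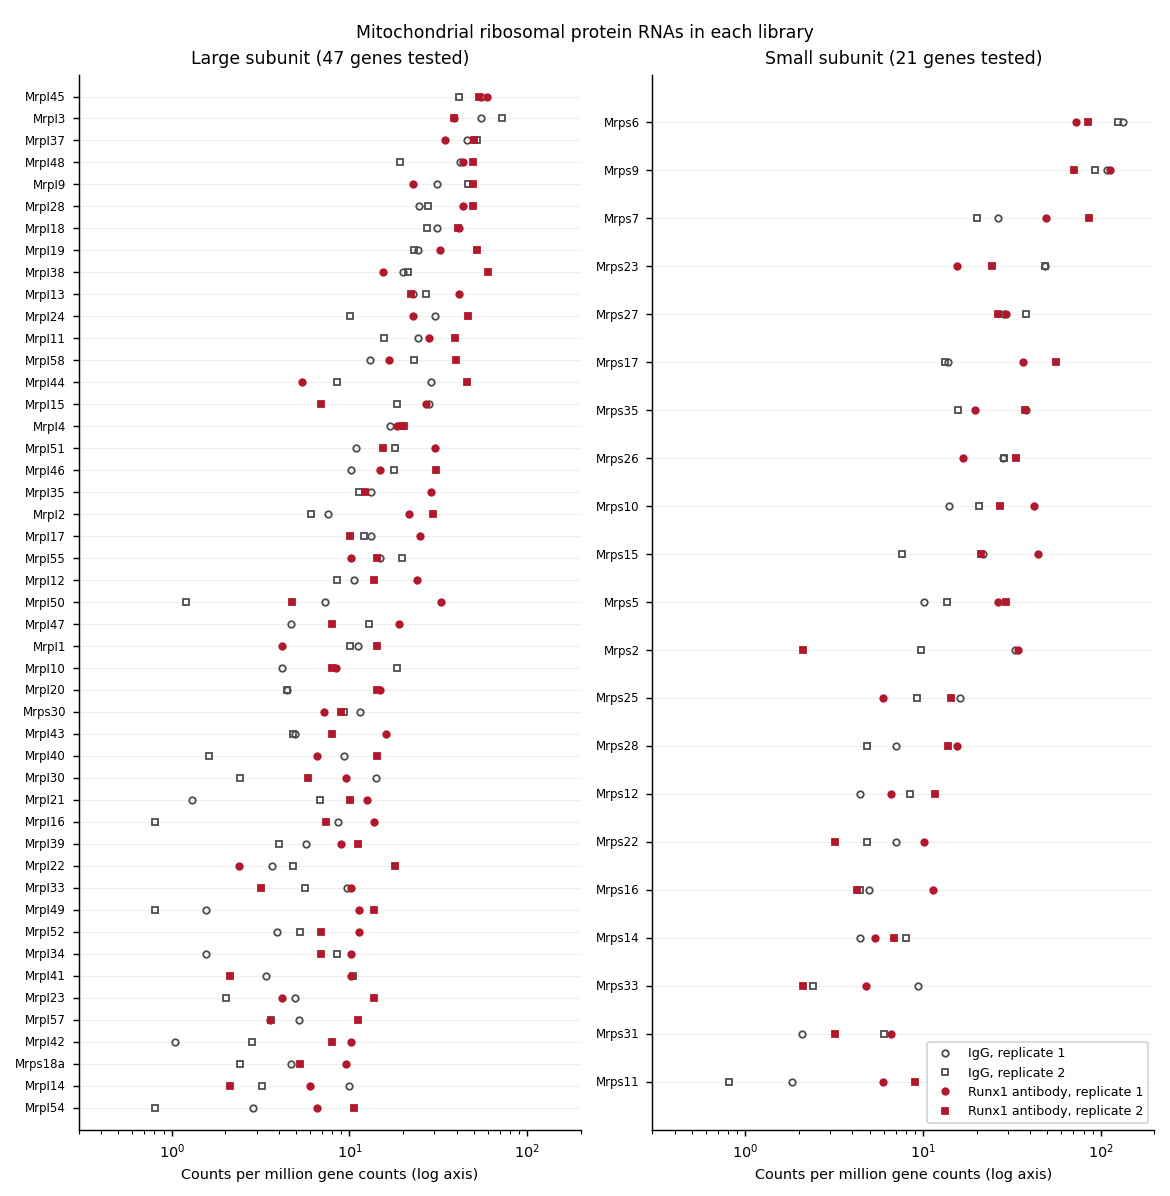
Level in CPM, on a log axis, in each of the 4 libraries for every tested member, by subunit, with 1 point per library. Mrps17, Mrps7, Mrpl49 and Mrpl2 have both Runx1 libraries above both IgG libraries, and Mrps6 and Mrps23 have both below.

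In the large subunit, Mrpl2 showed one of the wider separations. Mrpl2 is the counterpart of a bacterial protein next to the peptidyl transferase centre, where peptide bonds are formed. Its level was 21.5 and 29.7 CPM in the Runx1 libraries and 7.55 and 6.04 CPM in the IgG libraries, so the groups were far apart. This gave a log2 fold change of 1.87 ± 0.70 (SE), with an unadjusted p of 0.0262 and an adjusted p of 0.281 in edgeR's quasi-likelihood test. Mrpl49, a mitochondria-specific protein, had the largest log2 fold change of all tested members but very few counts in the controls. Mrpl49 passed the low-count filter only through the Runx1 libraries, where it was high. It had 19 and 26 counts in the Runx1 libraries and 6 and 2 in the IgG libraries, or 11.3 and 13.8 CPM against 1.56 and 0.806 CPM. The log2 fold change was 3.30 ± 1.14 (SE, adjusted p = 0.245 in edgeR). Mrpl20 was close to equal within each antibody, at 14.9 and 14.3 CPM with Runx1 and 4.42 and 4.43 CPM with IgG. Its log2 fold change of 1.68 ± 0.89 (SE) had an adjusted p of 0.448.

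Mrpl3, which also lies near the peptidyl transferase centre, went the other way. Its level was 38.8 and 38.7 CPM with Runx1 and 54.9 and 72.1 CPM with IgG, so both Runx1 libraries were below both controls. Its log2 fold change was -0.74 ± 0.41 (SE, adjusted p = 0.480 in edgeR). Mrpl3 and Mrpl2 thus had values on opposite sides of 0, neither of which passed.

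Mrpl45 and Mrpl37 were among the most counted large subunit members and lay close to 0. Mrpl45, which helps to hold the ribosome at the inner membrane near the exit of the peptide tunnel, stood at 59.7 and 53.5 CPM with Runx1 and 54.6 and 41.1 CPM with IgG. Mrpl37 stood at 34.6 and 50.3 CPM against 45.5 and 52.0 CPM. Both sets of libraries overlapped, and the log2 fold changes were 0.21 ± 0.41 for Mrpl45 and -0.22 ± 0.45 for Mrpl37 (SE).

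Mrpl12 belongs to the stalk that recruits translation factors. Its level was 23.9 and 13.8 CPM with Runx1 and 10.7 and 8.46 CPM with IgG, without overlap, giving a log2 fold change of 0.94 ± 0.74 (SE, adjusted p = 0.646 in edgeR). Mrpl10 and Mrpl11 form the base of that stalk. Mrpl11 stood at 28.1 and 39.2 CPM with Runx1 against 24.2 and 15.7 CPM with IgG, also without overlap (log2 fold change 0.72 ± 0.58 SE), while the libraries of Mrpl10 overlapped, at 8.36 and 7.95 against 4.16 and 18.5 CPM (log2 fold change -0.49 ± 0.99 SE). None of these 3 stalk members passed the test. Mrpl38, a protein of the central protuberance, stood at 15.5 and 60.4 CPM with Runx1 and 20.03 and 21.4 CPM with IgG, and its groups overlapped through the first Runx1 library. Its log2 fold change of 0.85 became -0.47 without the second Runx1 library. Mrpl58, a peptidyl-tRNA hydrolase built into the large subunit and able to free stalled ribosomes, stood at 16.7 and 39.7 CPM against 13.0 and 23.0 CPM, with overlap and a log2 fold change of 0.63 ± 0.69 (SE). Without the second Runx1 library its value was -0.15.

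The other named large subunit members were spread on both sides of 0. Mrpl19 stood at 32.2 and 52.5 CPM with Runx1 against 24.2 and 23.0 CPM with IgG, without overlap (log2 fold change 0.82). Mrpl15 stood at 26.9 and 6.89 CPM against 27.8 and 18.5 CPM (log2 fold change -0.50), and Mrpl55, which has a bacterial counterpart, at 10.1 and 14.3 against 14.8 and 19.7 CPM (log2 fold change -0.52). Mrps18a had 9.55 and 5.30 CPM against 4.68 and 2.42 CPM, and Mrps30 had 7.16 and 9.01 CPM against 11.4 and 9.27 CPM. These last 2 carry small subunit names and sit in the large subunit, and their log2 fold changes were 1.01 ± 1.13 and -0.38 ± 0.87 (SE). None of these 5 had an adjusted p below 0.554 in edgeR.

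Small subunit members held both the smallest p-values and the lowest fold changes. Mrps17 and Mrps7 are counterparts of bacterial proteins that bind the small subunit rRNA during its assembly. Mrps17 stood at 36.4 and 56.2 CPM in the Runx1 libraries and 13.8 and 13.3 CPM in the IgG libraries. The controls were nearly equal, and both Runx1 libraries were more than 2-fold above them. The log2 fold change of Mrps17 was 1.74 ± 0.56 (SE), with an unadjusted p of 0.0134 and an adjusted p of 0.215 in edgeR. Mrps7 stood at 48.9 and 85.3 CPM with Runx1 and 26.3 and 20.1 CPM with IgG, again without overlap. The log2 fold change of Mrps7 was 1.501 ± 0.49 (SE), with an unadjusted p of 0.0137 and an adjusted p of 0.217. A fit without the first Runx1 library leaves 1 library in that group, so no p-value is given from it for Mrps7 or Mrps17.

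Mrps5, Mrps10 and Mrps15 lay on the same side with less separation from their error. Mrps5, which sits where mRNA enters the small subunit, stood at 26.3 and 29.1 CPM with Runx1 and 10.1 and 13.7 CPM with IgG (log2 fold change 1.19 ± 0.63 SE, adjusted p = 0.454). Mrps10 stood at 41.8 and 27.0 CPM against 14.1 and 20.5 CPM, and Mrps15 at 44.2 and 21.2 CPM against 21.9 and 7.65 CPM. The libraries of Mrps15 overlapped, since the second Runx1 library was just under the first control. Mrps12, a protein of the decoding centre, had 6.57 and 11.7 CPM against 4.42 and 8.46 CPM, with overlap and a log2 fold change of 0.48 ± 0.99 (SE).

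Mrps6 and Mrps23 were the members with the lower level in the Runx1 libraries at an unadjusted p under 0.05. Mrps6, the highest member per length, stood at 72.2 and 84.8 CPM with Runx1 and 134 and 125 CPM with IgG. Both controls were well above both Runx1 libraries, and the replicates of each antibody were close. The log2 fold change of Mrps6 was -0.75 ± 0.30 (SE), with an unadjusted p of 0.0330 and an adjusted p of 0.303 in edgeR. Counts from the exons shared with Slc5a3 cannot be told apart from those of Mrps6 in these files. Mrps23, specific to mitochondria and with no exon overlap, stood at 15.5 and 24.4 CPM with Runx1 and 48.4 and 48.3 CPM with IgG. The log2 fold change of Mrps23 was -1.30 ± 0.52 (SE), with an unadjusted p of 0.0350 and an adjusted p of 0.310.

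Mrps9, Mrps27 and Mrps33 had values below 0 with overlapping libraries. Mrps9 stood at 113 and 70.5 CPM against 108 and 92.7 CPM, Mrps27 at 29.2 and 26.5 CPM against 28.4 and 37.9 CPM, and Mrps33 at 4.77 and 2.12 CPM against 9.37 and 2.42 CPM. Their log2 fold changes were -0.16 ± 0.34, -0.28 ± 0.53 and -0.82 ± 1.26 (SE). Mrps33 lies near the level of 3 counts, and its error covers both directions.

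Too few counts to be tested were left for 10 of the 78 members. Mrpl53 was listed at 0 counts in all 4 libraries, and its whole annotated transcript overlaps the gene Gm42688. Mrpl36, the counterpart of the smallest bacterial large subunit protein, had 22 and 6 counts with Runx1 and 3 and 1 with IgG. The pooled ratio of its levels was 12.4, with an exact 95% interval of 4.35 to 48.8 that covers counting error only and not the difference between replicates. Mrpl27, a protein near the peptidyl transferase centre, stood at 14.3 and 3.18 CPM against 3.38 and 4.03 CPM, a pooled ratio of 2.32 (1.30 to 4.17) that rests on the first Runx1 library. Mrpl32, Mrps18b, Mrps18c, Mrps21, Mrps24, Mrps34 and Mrps36 stayed between 0 and 5.83 CPM in all libraries. Among them Mrps18c is the counterpart of bacterial S18 and Mrps18b is a mitochondria-specific relative. Mrps34 had no count in either Runx1 library and 1 and 3 counts in the IgG libraries. Exons of other genes overlap 62.7% of its transcript, with Nme3 on the same strand, and 59.1% of that of Mrps18b. The part of these overlaps in the low counts was not tested.

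**Figure D3:**
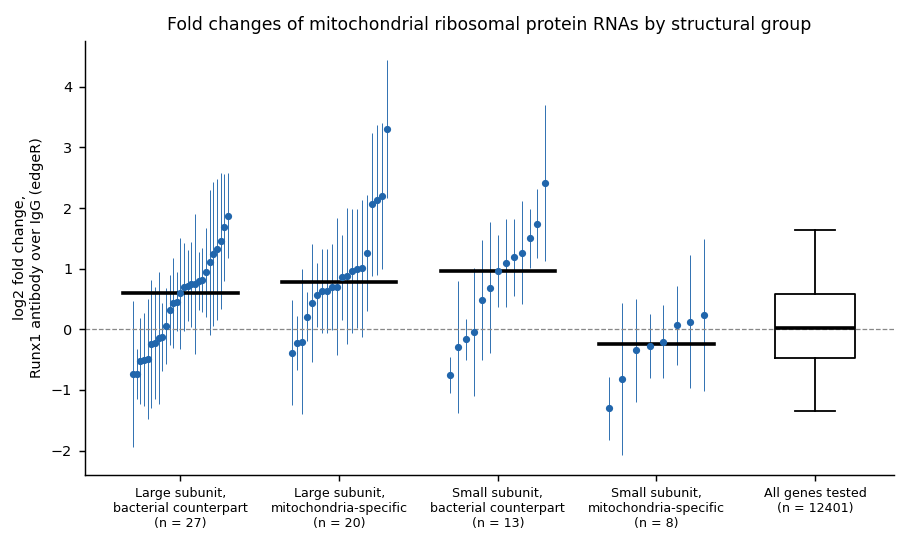
Log2 fold change, Runx1 over IgG, of each tested member by subunit and by origin (bacterial counterpart or mitochondria-specific), with 1 point and its SE bar per gene. The box of all tested genes has whiskers at the 5th and 95th percentiles, and its median is 0.03. In the large subunit the medians are 0.59 (bacterial counterpart) and 0.78 (mitochondria-specific). In the small subunit they are 0.96 (bacterial counterpart) and -0.24 (mitochondria-specific).

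By subunit, 35 of 47 tested large subunit members and 12 of 21 tested small subunit members had a log2 fold change above 0. The medians were 0.70 and 0.12. The order of these medians was not stable, since without the second Runx1 library they were 0.43 for the large and 0.61 for the small subunit. Without the first IgG library the large and small subunit medians were 0.74 and 0.55, and without the second 0.61 and 0.43, in the same order as with all libraries. By origin, 27 of 40 members with a bacterial counterpart (median 0.69) and 20 of 28 mitochondria-specific members (median 0.60) were above 0. Within the small subunit, the 13 tested members with a bacterial counterpart had a median of 0.96, with 9 above 0, and the 8 mitochondria-specific members had a median of -0.24, with 3 above 0. In the large subunit the medians were 0.59 over 27 members with a bacterial counterpart and 0.78 over 20 mitochondria-specific members. These are descriptions of small groups of genes, and no difference between groups was tested.

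Replicate spread sets how far single members can be read. The 2 Runx1 libraries differed by more than 2-fold for 27 of 68 members (39.7%, against 30.7% of all tested genes), and the 2 IgG libraries for 22 (32.4%, against 26.2%). The tested members were less counted, with a median level of 14.5 CPM against 29.1 CPM over all tested genes. Among the 25 members of at least 20 CPM the Runx1 libraries differed this far for 7 (28%) and the IgG libraries for 5. Among the 43 tested members under 20 CPM they did so for 20 (46.5%) and 17 (39.5%). No comparison with genes of similar level was made. Mrps2 is the extreme case, at 34.0 and 2.12 CPM in the Runx1 libraries, a 16.1-fold gap, and at 33.0 and 9.67 CPM in the IgG libraries. Mrpl44, which has a fold related to RNase III, stood at 5.37 and 45.6 CPM with Runx1, an 8.48-fold gap, and at 28.6 and 8.46 CPM with IgG. Mrpl16 had 8.59 and 0.806 CPM in the IgG libraries, a 10.7-fold gap. These 3 members were chosen after their values were seen, for their spread.

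Cytosolic ribosomal proteins, which build the ribosome outside mitochondria, summed to 14694 and 15631 CPM with Runx1 and 7917 and 8017 CPM with IgG, a ratio of 1.90. Of these, 73 of 75 tested were above 0 with a median log2 fold change of 0.82, and 7 rose in edgeR's test, against 0.306% of all genes called higher. The number called was 19 in DESeq2 and 16 in limma-voom, where they called 6.25% and 1.79% of all genes. It was 18 with no low-count filter (549 of 22242 genes called) and 18 with 10 counts in each library (285 of 9367). It was 2 with the length and GC correction (28 of 12396) and 0 with spike-in scaling (3933 of 12401) or the replicate block (2 of 12401). Many products of the nuclear genes of oxidative phosphorylation assemble with proteins the mitochondrial ribosome makes. These nuclear genes summed to 4140 and 4131 CPM against 2889 and 2952 CPM, a ratio of 1.42. Of these, 54 of 61 tested were above 0 with a median of 0.71. In edgeR 0 of the 61 passed and 8 (13.1%, against 14.2% of all tested genes) had an unadjusted p under 0.05. For this set DESeq2 called 2 and limma-voom 1, where they called 6.25% and 1.79% of all genes. The mitochondrial ribosomal proteins amounted to 10.3% and 10.2% of the cytosolic ribosomal protein sum in the Runx1 libraries and to 16.3% and 14.6% in the IgG libraries. The differences between these sets were not tested. The order of the member and oxidative phosphorylation medians was not stable, since they were 0.70 and 0.66 without the first IgG library and 0.43 for both without the second Runx1 library.

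Transcript length moved with the fold change over all genes. Median transcript length was 1415 bases for tested members, 937 bases for tested cytosolic ribosomal proteins and 3205 bases for all tested genes. Spearman's rho of log2 fold change with length was -0.23 across the members and -0.26 across all tested genes, as a description over genes that share the same libraries. Members under 1000 bases had a median log2 fold change of 0.98 (16 members), against 0.36 for all tested genes of that length. From 1000 to under 2000 bases the medians were 0.57 (28 members) and 0.31, from 2000 to under 4000 bases 0.63 (15 members) and 0.09, and from 4000 bases 0.43 (9 members) and -0.19. The member median was above that of all genes in each of the 4 length classes. After a correction for length and GC content the member median was 0.35, the large subunit median 0.45, the small subunit median 0.11, the cytosolic ribosomal protein median 0.51 and the oxidative phosphorylation median 0.29.

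**Figure D4:**
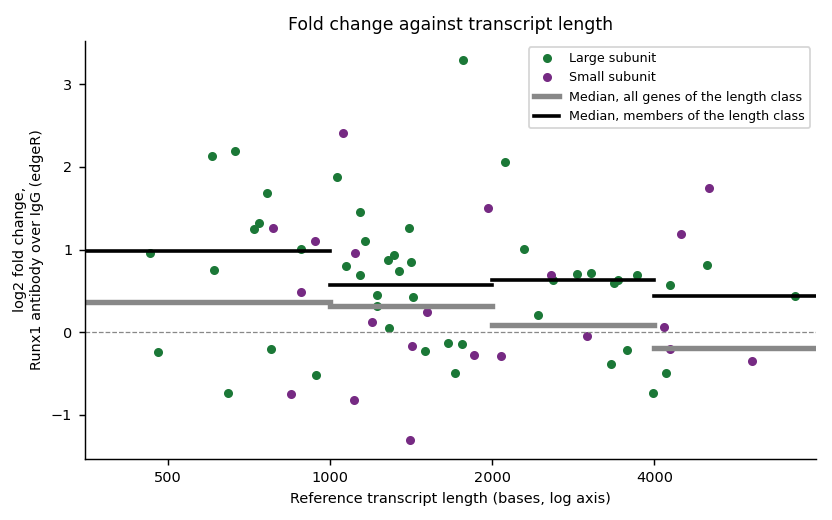
Log2 fold change, Runx1 over IgG, of the tested members against transcript length in bases on a log axis, with the medians of members and of all tested genes in 4 length classes. The member medians run from 0.98 under 1000 bases to 0.43 at 4000 bases or more and lie above those of all genes, which run from 0.36 to -0.19.

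Some members share sequence with other genes, which limits what their counts mean. The longest transcripts of 28 members overlap exons of another gene. A pseudogene copy with at least 200 bases at 95% identity or more exists for 18 members, and 40 members have one or the other. Overlaps that touch only other transcripts, as in Mrpl3, Mrpl36, Mrpl46, Mrpl48 and Mrps24, are not in the count of 28. Mrpl3 and Mrpl46 therefore stand below among the members with neither. The 36 tested members with neither had a median log2 fold change of 0.69, with 26 above 0, and the 32 with an overlap or a copy had a median of 0.61, with 21 above 0. Mrps17, Mrpl2 and Mrps23 have neither. Of the transcript of Mrps7, 12.5% overlaps Gga3 and Mif4gd on the opposite strand, and of that of Mrpl49, 5.16% overlaps another gene.

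Spike-in RNAs gave another scale. They amounted to 3.56 and 3.78 counts per 10000 gene counts with Runx1 and to 1.29 and 1.75 with IgG. Scaled to them, the median log2 fold change was -0.61 over the members and -1.25 over all tested genes, a shift that touches every gene. The members lay 0.64 above all genes on that scale and 0.60 above them on the other. With spike-in scaling 5 members were called lower (Mrps6, Mrps23, Mrpl3, Mrps9 and Mrpl37), where 31.6% of all tested genes were, and 11 of 68 members remained above 0. How much spike-in was added, and when, is unknown here.

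Other genes of mitochondrial translation gave 1 call. The 16S rRNA, mt-Rnr2, rose with the Runx1 antibody. Its level was 886 and 734 CPM with Runx1 and 368 and 366 CPM with IgG, a log2 fold change of 1.11 ± 0.15 (SE, adjusted p = 0.0244 in edgeR). The call was kept with each library left out in turn and by DESeq2 and limma-voom, and lost with spike-in scaling, where the value was -0.16 (adjusted p = 0.713), and with the replicate block (adjusted p = 0.0846). The 12S rRNA, mt-Rnr1, stood at 138 and 109 CPM against 108 and 86.6 CPM, with a log2 fold change of 0.31 ± 0.30 (SE, adjusted p = 0.719), and its libraries did not overlap. The difference between both rRNAs was not tested.

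Among the proteins of these lists 0 of 77 tested passed in edgeR, and 9 (11.7%, against 14.2% of all tested genes) had an unadjusted p under 0.05. For these proteins limma-voom called 0 and DESeq2 called 1, Oxa1l, where they called 1.79% and 6.25% of all genes. Of 12 tested translation factors 10 were above 0, with a median of 0.53. Oxa1l, which inserts newly made proteins into the inner membrane, had the smallest p of them, at 55.5 and 82.1 CPM with Runx1 and 19.0 and 13.3 CPM with IgG (log2 fold change 2.06 ± 0.50 SE, adjusted p = 0.117 in edgeR). Tufm, the elongation factor that brings aminoacyl-tRNA to the ribosome, stood at 158 and 174 CPM against 80.1 and 139 CPM (log2 fold change 0.57, adjusted p = 0.476). Of 20 tested assembly and rRNA factors 11 were above 0, with a median of 0.06. Ddx28, a helicase of large subunit assembly, stood at 37.6 and 11.1 CPM against 6.24 and 2.82 CPM (adjusted p = 0.285), and Mtg2, a GTPase of the same process, at 0.597 and 1.06 CPM against 9.11 and 7.65 CPM (adjusted p = 0.309). Both take part in building the large subunit, and their values lay on opposite sides of 0.

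Of 20 tested aminoacyl-tRNA synthetases and related enzymes 16 were above 0, with a median of 0.59. Fars2, the phenylalanyl-tRNA synthetase, stood at 67.4 and 53.5 CPM with Runx1 and 25.5 and 32.2 CPM with IgG (log2 fold change 1.04 ± 0.45 SE, adjusted p = 0.341 in edgeR). Of 20 tested genes of mitochondrial transcription and RNA processing 14 were above 0, with a median of 0.19. Mterf2 stood at 10.1 and 5.30 CPM with Runx1 and had no count in either IgG library (adjusted p = 0.181). Dap3, Aurkaip1, Chchd1, Ptcd3 and Gadd45gip1 are proteins of the mitochondrial ribosome whose symbols do not begin with Mrpl or Mrps. Of these 5 genes 3 were above 0, and the median was 0.05. Gadd45gip1 stood at 8.36 and 13.2 CPM against 1.04 and 3.22 CPM (adjusted p = 0.415), and Ptcd3 at 84.2 and 18.5 CPM against 86.6 and 60.8 CPM (adjusted p = 0.762).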

How the data were processed

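RIP-seq libraries of sorted Cd31+ cells were compared, 2 with a Runx1 antibody and 2 with IgG, grouped by sample title. The values are raw counts, whole numbers for each Ensembl gene that the authors deposited without normalization. The build mm10 and the tools STAR 2.7.3a, Salmon 1.1.0 and Trimmomatic 0.36 were used per the submitters' processing notes, in no stated role. Not given in the sources used here are the annotation, the strand setting and whether the counts are rounded estimates. Per the labels' protocols, recovered RNA was amplified with a single-cell reverse transcription method and the cDNA sheared. No molecular identifiers are named, so intervals cover counting error only.

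Of 55573 gene identifiers 55480 matched GENCODE M21. The 92 spike-in identifiers were left out of library sizes and tests. The main test was edgeR 4.0.16 in R 4.3.3 (quasi-likelihood, TMM, filterByExpr at its defaults of 10 counts and a total of 15) on all 4 libraries, two-sided, adjusted by Benjamini-Hochberg across 12401 genes, with calls at a false discovery rate of 0.05. Each SE is the one implied by the test statistic. The test was checked on simulated data. Alternatives were DESeq2 1.42.0, limma-voom (limma 3.58.1), 3 other scalings, 2 other filters, a replicate block, each library left out, a length and GC correction by splines with 5 degrees of freedom, and protein-coding genes only. Pseudogene copies were found with blastn 2.17.0.

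Members named were those called by any tool, the 6 highest by level, the 6 higher and 6 lower with the smallest p, the 6 with the largest and the 6 with the smallest fold change among those of at least 20 CPM, those that could not be tested, and Mrpl12, Mrpl58, Mrps12, Mrps18a, Mrps18b, Mrps18c, Mrps30 and Mrps36; others were named from up to 3 of each list by p. Values for members named outside this rule (Mrps2, Mrpl10, Mrpl11, Mrpl16, Mrpl18, Mrpl28 and Mrpl44) were added after they were seen. The members and lists were chosen with earlier results of these data known. Promoter windows came from RefSeq (GRCm38.p6).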

Additional observations from a re-analysis of the deposited data

How the results depend on the processing

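No member was called under the alternatives at a false discovery rate of 0.05 except with spike-in scaling, which called 5 lower; in the others between 1 and 8 members had an unadjusted p under 0.05, the 1 being without the second IgG library. Calls over all genes, 80 in the edgeR test, were 3933 with spike-in scaling, 549 with no low-count filter, 285 with 10 counts in each library, 28 with the length and GC correction, 145 with protein-coding genes only, 528 in DESeq2, 222 in limma-voom, 230 at a false discovery rate of 0.1 and between 176 and 600 with 1 library left out. The cause was not tested. The median log2 fold change of the members, 0.63, was -0.61 with spike-in scaling, 0.35 with the length and GC correction and between 0.42 and 0.73 with 1 library left out. The ratio of summed levels, 1.26, ranged from 1.23 to 1.26 over 3 other totals.

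With the replicate number as a block, 2 genes were called over all genes and 0 members, and the member median was 0.56. Whether the numbers pair the libraries is unknown, since the labels name no shared source. The differences between replicates of both antibodies had a correlation of 0.0044 across genes, which at low counts cannot decide the question.

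With spike-in scaling 10 of the 25 tested members named by the rule changed sign: Mrpl12 (-0.35), Mrpl19 (-0.48), Mrpl38 (-0.45), Mrpl45 (-1.09), Mrpl58 (-0.61), Mrps10 (-0.26), Mrps12 (-0.74), Mrps15 (-0.25), Mrps18a (-0.30) and Mrps5 (-0.059). With the length and GC correction Mrps12 did (-0.076). With 1 library left out, Mrpl15 ranged from -1.80 to 0.16, Mrpl38 from -0.47 to 1.49, Mrpl58 from -0.15 to 1.09, Mrps12 from -0.018 to 0.998 and Mrps9 from -0.56 to 0.12, and each changed sign only without the second Runx1 library. The filter of 10 counts in each library left 22 of these 25 members, and DESeq2 gave 17 of them an adjusted p. Depth limits most members, whose median count was 21 to 37.5 per library.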
